A study of Mus musculus with 2 samples.

Results

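A set of 9 genes of thyroid hormone carriage, activation, reception and response was followed in mouse liver after adenoviral delivery of the microRNA miR-378. They were 9 of the 20652 genes that had a probe with a gene symbol on the array, and were chosen by name, as the carriers Serpina7 and Ttr, the deiodinase gene Dio1, the receptor genes Thra and Thrb, and the target genes Thrsp, Me1, Gpd2 and Klf9. These genes were picked with earlier results of these data known. All 15 of their probes were well above background in both pools, so that each of the 9 was measured. Of the 9 genes, Serpina7 was far lower in the Ad-378 pool, Dio1, Gpd2 and Thra were higher by just under 2-fold, and the other 5 differed by less than 2 scanner errors at the probe that gives the gene its value.

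The Ad-378 group received an adenovirus labelled as overexpressing miR-378, and the Ad-Ctrl group a control adenovirus. Both were male mice injected in the tail vein at 8 weeks of age with 1e9 plaque forming units, and both groups therefore carry virus. The livers of 5 mice were pooled in each group and run on 1 array, so neither the spread between mice nor the spread between arrays is known and no p-value is given. Collection was 2 weeks after injection by the protocols of both groups, whereas a label of the Ad-378 pool gives 3 weeks, so time after injection may differ between the pools as well. Strain, the arm of the microRNA, the promoter of the viruses and the share of hepatocytes reached by them are not given in the sources used here, and miR-378 itself was not analysed here.

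Thyroid hormone leaves the thyroid mainly as thyroxine and travels in blood bound to thyroxine-binding globulin, transthyretin and albumin, proteins that the liver makes. Membrane transporters carry it into hepatocytes, where type 1 deiodinase, a selenoenzyme, removes an outer-ring iodine and yields the active hormone triiodothyronine. Triiodothyronine binds the nuclear receptors TR-alpha and TR-beta, of which TR-beta is the main form in liver, and these bind DNA as partners of retinoid X receptors and switch between corepressors and coactivators. Genes of lipogenesis and mitochondrial shuttles are classical hepatic targets. The title of the study describes miR-378 as responsive to thyroid hormone and places it in bile acid synthesis.

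Values are processed spot signals on a linear scale. A log2 difference is Ad-378 minus Ad-Ctrl after each array was divided by its 75th percentile, a signal of 695 in Ad-378 and 800 in Ad-Ctrl, so equal raw signals give a small positive difference. The error quoted with a difference is the scanner software's own error of both spots. It lay between 0.20 and 0.37 log2 units for the 15 probes, was close to 10% of the signal for most spots, and does not include mice. The number of arrays limits the precision. A difference of 1 log2 unit, or 2-fold, was used to count genes, and 1050 of the 14288 genes well above background on both arrays passed it (7.35%), 405 of them higher in Ad-378 (2.83%) and 645 lower (4.51%). Of the 9 members 1 passed. With 9 genes chosen by name, and with earlier results of these data known, this share is no result about the group. The median of all genes was 0.04 and that of the members 0.08.

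The region upstream of the start site is shown for 4 members that bear on these results, namely Serpina7 as the member furthest apart, Dio1 and Thrsp as 2 classical targets with unlike differences, and Thrb, whose probes disagreed. Each sequence is the 250 bases before an annotated start in RefSeq, build GRCm38.p6, read 5′ to 3′ on the strand of the gene, and capitals mark the receptor half-site AGGTCA on either strand.
Serpina7, chrX:139085237-139085486, minus strand: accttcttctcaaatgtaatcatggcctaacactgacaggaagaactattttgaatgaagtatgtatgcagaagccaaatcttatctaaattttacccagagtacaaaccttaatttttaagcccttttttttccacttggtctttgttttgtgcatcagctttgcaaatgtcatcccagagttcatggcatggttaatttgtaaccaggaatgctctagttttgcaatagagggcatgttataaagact
Dio1, chr4:107307169-107307418, minus strand: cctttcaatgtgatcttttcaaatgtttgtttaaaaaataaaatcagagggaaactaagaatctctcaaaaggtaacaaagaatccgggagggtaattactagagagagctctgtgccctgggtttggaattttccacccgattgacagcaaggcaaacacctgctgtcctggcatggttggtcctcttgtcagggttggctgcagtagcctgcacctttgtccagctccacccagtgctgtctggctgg
Thrsp, chr7:97417551-97417800, minus strand: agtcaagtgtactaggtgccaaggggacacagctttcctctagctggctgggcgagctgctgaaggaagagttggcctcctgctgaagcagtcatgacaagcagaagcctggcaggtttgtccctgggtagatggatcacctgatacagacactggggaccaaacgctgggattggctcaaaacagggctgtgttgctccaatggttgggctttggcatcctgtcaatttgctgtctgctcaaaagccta
Thrb, chr14:17660710-17660959, plus strand: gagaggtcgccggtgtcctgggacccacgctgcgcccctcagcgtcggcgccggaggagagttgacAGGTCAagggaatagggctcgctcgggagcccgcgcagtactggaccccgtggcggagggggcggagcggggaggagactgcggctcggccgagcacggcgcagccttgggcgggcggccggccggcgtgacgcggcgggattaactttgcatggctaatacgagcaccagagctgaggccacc
RefSeq windows were read for 7 of the 9 members, with 11 start sites. Thra had no window in the set used, and that of Ttr is not reported here. Of these 11 windows only the Thrb window shown holds the half-site, 184 bases upstream of the start on the strand of the gene. Across 32851 windows of the same length 14.0% hold it. A pair of half-sites in the same direction spaced by any 4 bases was in 0 of the 11 windows and in 5 of the 32851 (0.0152%). These counts describe the letters of the windows only.

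**Figure D1:**
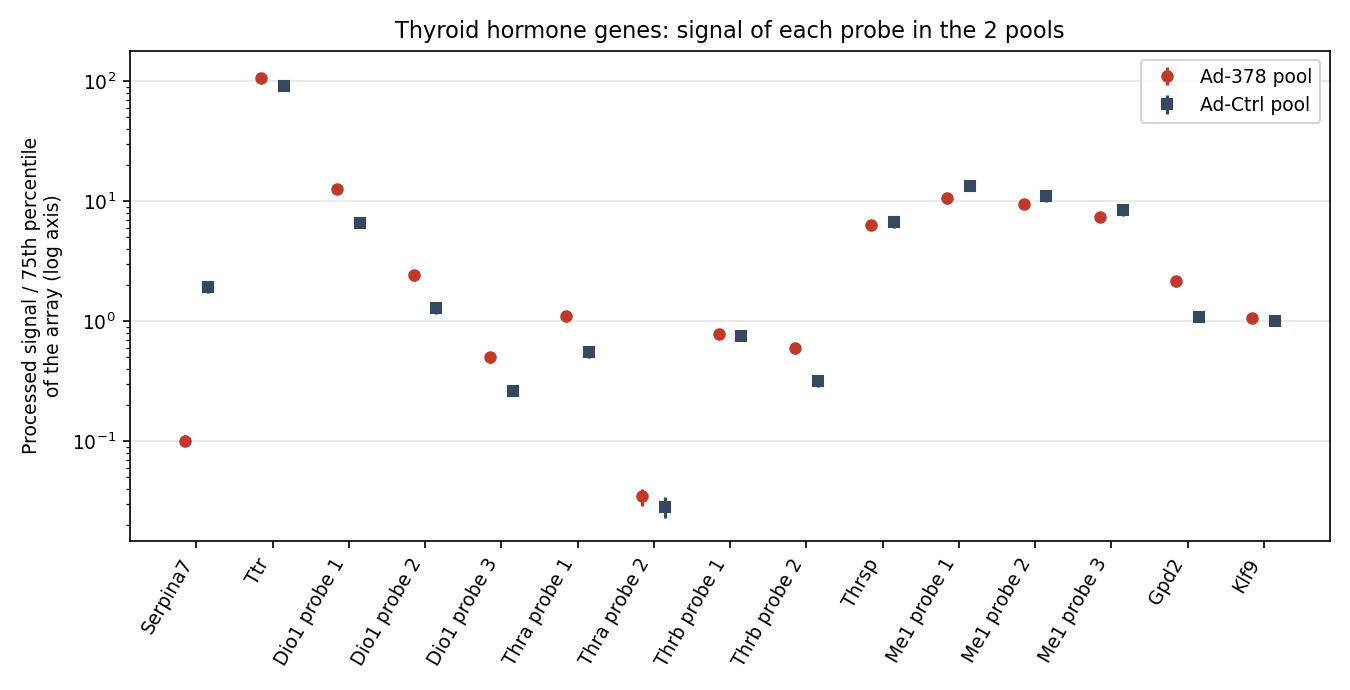
Processed signal of each of the 15 probes divided by the 75th percentile of its array (log axis), with Ad-378 as circles and Ad-Ctrl as squares and bars of 1 scanner error. Serpina7 sits far lower in Ad-378 than in Ad-Ctrl, the 3 Dio1 probes, the brighter Thra probe, the second Thrb probe and Gpd2 sit higher, and the rest nearly coincide. Heights of different probes are not comparable with each other.

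Serpina7 encodes thyroxine-binding globulin, a serpin that carries thyroxine and does not inhibit proteases. Its 1 probe had a signal of 70.3 in the Ad-378 pool and 1534 in the Ad-Ctrl pool. After scaling this was 18.9-fold lower in Ad-378 (log2 difference -4.24, scanner error 0.21). The Ad-378 spot carried the flag for well above background, as every gene value here does by selection, and the dimmest such probe on that array had 11.3. The flag does not show that a signal is specific. The pancreas marker gene Ins2 carried it too, with 171 in Ad-378 and 175 in Ad-Ctrl. How much of the Serpina7 signal in Ad-378 is specific was not tested, and the size of the fold depends on it. Before background subtraction the spot read 125 over a local background of 30 in Ad-378, against 1726 over 34 in Ad-Ctrl. Serpina7 was the third lowest of all 14288 genes, and across the 8 settings of processing its difference ran from -4.28 to -3.42.

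The genes nearest to Serpina7 in difference were the sulfotransferase genes Sult2a2 (-5.02) and Sult2a1 (-5.24) below it and the estrogen sulfotransferase gene Sult1e1 (-4.14) and the calcium-binding protein gene S100g (-4.01) above it. In Ad-378 Sult2a1 read 12.5, Sult2a2 20.8 and S100g 23.8, near the dimmest signal well above background on that array (11.3). With 2 arrays a gene's pattern is this single number, so likeness here means only a similar difference. The Sult2a genes are near-identical copies that their probes may not tell apart. Of 21 Serpina genes measured Serpina7 alone was at least 2-fold lower, and 5 were at least 2-fold higher. Over all genes these shares were 4.51% lower and 2.83% higher. The highest Serpina gene, Serpina5, was dim, with 88.1 in Ad-378 and 29.4 in Ad-Ctrl. The next lowest after Serpina7 was Serpina6, the corticosteroid-binding globulin gene, at -0.94.

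Ttr encodes transthyretin, which carries both thyroxine and retinol-binding protein. It gave a signal of 74055 in Ad-378 and 73206 in Ad-Ctrl, a log2 difference of 0.22 with an error of 0.20. Quantile normalization put it at 0.03 and loess at 0.01. Albumin, the low-affinity carrier, read 157338 in Ad-378 and 159091 in Ad-Ctrl, or 0.19 after scaling. The 3 carriers thus had 1 gene far lower and 2 within 2 scanner errors of no difference.

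Dio1 encodes the type 1 deiodinase and is itself a target of the receptors. Its brightest probe gave 8877 in Ad-378 and 5274 in Ad-Ctrl, the second 1687 in Ad-378 and 1029 in Ad-Ctrl, and the dimmest 347 in Ad-378 and 211 in Ad-Ctrl. The log2 differences were 0.95, 0.92 and 0.92. All 3 probes were thus higher in Ad-378 by nearly the same amount, a range of 0.04 between probes whose signals differ widely. Of the 3419 genes with 2 or more probes measured, 87.1% had a range at least as wide. For the brightest probe this was 1.94-fold, which 442 of the 14288 genes exceeded in the upward direction, and the difference lay between 0.83 (loess) and 0.95 across the settings.

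Thra encodes TR-alpha and, by splicing, a form that does not bind hormone. The brighter of its probes read 766 in Ad-378 and 442 in Ad-Ctrl, a log2 difference of 1.00 (1.99-fold) with an error of 0.20. It lay on the edge of the threshold, with exactly the 405 called genes above it, and was past it under quantile normalization (1.02) but not on the mean of its probes (0.64). The second probe, to the same transcript accession, was close to background at 24.1 in Ad-378 and 22.9 in Ad-Ctrl, and gave 0.28 with an error of 0.37. Nr1d1, which encodes the heme-responsive repressor REV-ERB-alpha and overlaps Thra in the RefSeq annotation, read 509 in Ad-378 and 433 in Ad-Ctrl, a difference of 0.43.

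Thrb encodes TR-beta, and its probes did not give the same answer. One read 547 in Ad-378 and 608 in Ad-Ctrl, a log2 difference of 0.05 whose sign comes from the scaling, and the other read 414 in Ad-378 and 252 in Ad-Ctrl, a log2 difference of 0.92. Both carry the same transcript accession. The gap between them was 0.87 (scanner error 0.29), and 5.82% of the 3419 genes with several probes had a gap at least as wide. The value for Thrb therefore depended on the probe taken, and on the mean of both it was 0.48.

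**Figure D2:**
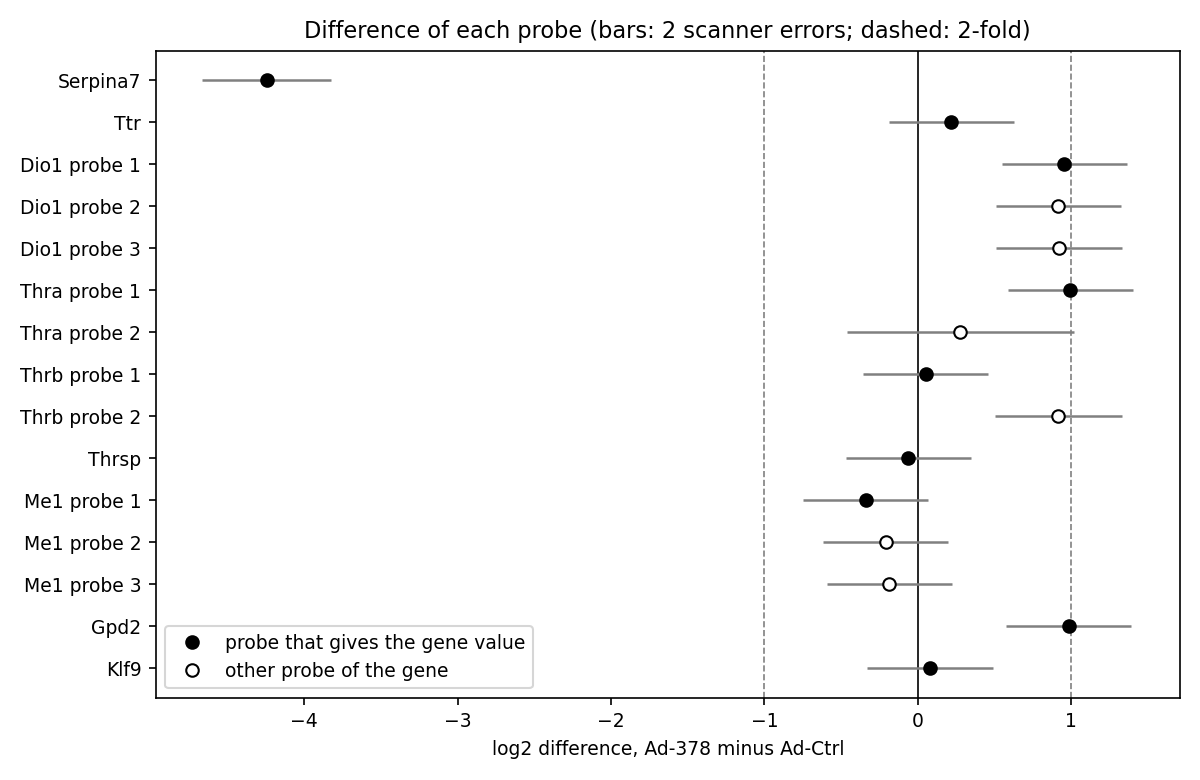
Log2 difference of each probe, Ad-378 minus Ad-Ctrl, with bars of 2 scanner errors and dashed lines at 2-fold; filled points give the value of the gene. Serpina7 lies at -4.24, Gpd2, the 3 Dio1 probes and 1 probe each of Thra and Thrb lie between 0.92 and 1.00, and the bars of all other probes include 0.

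The 4 targets chosen for reading out hormone action in liver did not differ in one direction. Gpd2, the mitochondrial glycerol-3-phosphate dehydrogenase of the glycerophosphate shuttle, had 1496 in Ad-378 and 871 in Ad-Ctrl. Its log2 difference was 0.98 with an error of 0.20, or 1.98-fold, and it varied only from 0.94 to 0.98 across the settings.

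Me1, the cytosolic malic enzyme that supplies NADPH for lipogenesis, was slightly lower in Ad-378 at each of its 3 probes. The brightest read 7380 in Ad-378 and 10748 in Ad-Ctrl, the next 6625 in Ad-378 and 8818 in Ad-Ctrl, and the dimmest 5138 in Ad-378 and 6730 in Ad-Ctrl. Their log2 differences were -0.34, -0.21 and -0.19, each within 2 scanner errors of 0 (errors of 0.20). The gene value passed that range under quantile normalization (-0.45), loess (-0.47), on the series matrix (-0.41) and after normexp (-0.41).

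Thrsp, the Spot 14 gene of lipogenesis, read 4432 in Ad-378 and 5326 in Ad-Ctrl. This came to -0.06 after scaling, with an error of 0.20. Klf9, a Krüppel-like transcription factor that responds directly to the hormone in several tissues, read 740.5 in Ad-378 and 807 in Ad-Ctrl, or 0.08 with an error of 0.20. Both raw signals were lower in Ad-378, and for Klf9 the sign of the scaled difference comes from the 75th percentile. Dio1 and Gpd2 were thus higher, while Thrsp, Me1 and Klf9 lay within 2 scanner errors of 0.

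**Figure D3:**
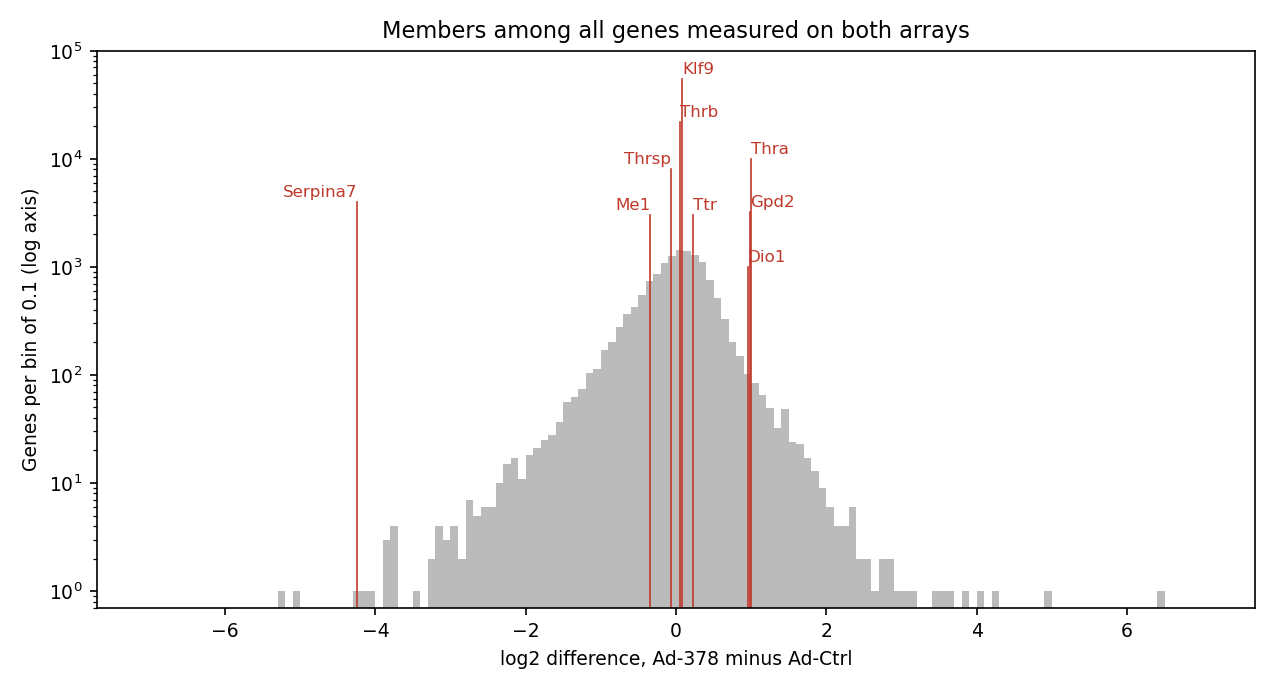
Distribution of the log2 difference, Ad-378 minus Ad-Ctrl, over 14288 genes (number of genes per bin of 0.1, log axis), with the 9 members as lines; the heights of the lines have no meaning. Serpina7 is at the lower extreme, Dio1, Gpd2 and Thra are near the 2-fold edge of the upper side, and the other 5 lie in the bulk.

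The wider pathway was read from 6 lists ordered by role, 78 genes in all, of which 72 were measured on both arrays. Of these 72, 41 were higher and 31 lower, 4 lay 2-fold or more above and 5 as far below, and the median was 0.05 (-0.01 under loess), beside 0.04 and 7.35% at 2-fold over all genes. Without the members, 63 genes had a median of 0.05 (-0.02 under loess). The lists were chosen with earlier results of these data known, so their counts are no independent reading of the pathway.

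Of 10 membrane transporters 9 were measured, 3 higher and 6 lower, with a median of -0.33. Slco1a1, an organic anion transporter, was 5.42-fold higher, with 2417 in Ad-378 and 514 in Ad-Ctrl. Slco1a4, a related uptake transporter, was at -0.85. Slc16a10, the MCT10 transporter, was at -0.81 at its brighter probe and 0.69 at the other, which carries another transcript accession, so it had no single direction. Slco1c1 was not well above background on either array.

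Among 10 genes of deiodination and selenoprotein supply 8 were measured, with a median of 0.17. Dio2, the deiodinase of brown fat and brain, and Dio3, the inactivating deiodinase, were not well above background on either array. Sephs2, the enzyme that makes the selenium donor for selenocysteine, had 822 in Ad-378 and 166 in Ad-Ctrl, 5.68-fold higher. Eefsec, the elongation factor that delivers selenocysteine, was at -0.64 and Trnau1ap, a protein that associates with the selenocysteine tRNA, at 0.35. Sephs2 was the 1 gene of the list at least 2-fold apart.

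Conjugation and cytosolic binding had 7 genes listed and 4 measured. Sult1e1, which sulfates estrogens and iodothyronines, had 277 in Ad-378 and 5605 in Ad-Ctrl, 17.6-fold lower. Sult1a1, a phenol sulfotransferase, was at -0.75, Sult1b1, a sulfotransferase of thyroid hormone, at 0.32 and Crym, the cytosolic binding protein, at -0.32. No named probe was found for Ugt1a1 or Ugt1a9.

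All 21 receptors, partners and coregulators were measured, 13 higher and 8 lower, with a median of 0.05. Med1, the Mediator subunit that the receptors contact, was 3.21-fold higher at its brightest probe, with 21624 in Ad-378 and 7761 in Ad-Ctrl. Its 3 other probes gave 0.07, 1.04 and 0.41, and the mean over probes was 0.80, inside 2-fold. Crebbp, the acetyltransferase CBP, was at -1.34, with 148 in Ad-378 and 432 in Ad-Ctrl. Rxrg, a retinoid X receptor gene, was at 0.70 and 1.18 at its probes.

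Of 28 liver target genes, among them 5 members, all were measured, 18 higher and 10 lower, with a median of 0.11 (-0.01 under loess). Fgf21, a hormone of fasting, was 4.12-fold higher, with 674 in Ad-378 and 188 in Ad-Ctrl. Ucp2, a mitochondrial carrier, was at -1.20, with 767 in Ad-378 and 2034 in Ad-Ctrl. In all, 1 gene of the list lay 2-fold or more above and 2 as far below. Without the members the 23 others had a median of 0.12 (-0.02 under loess).

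**Figure D4:**
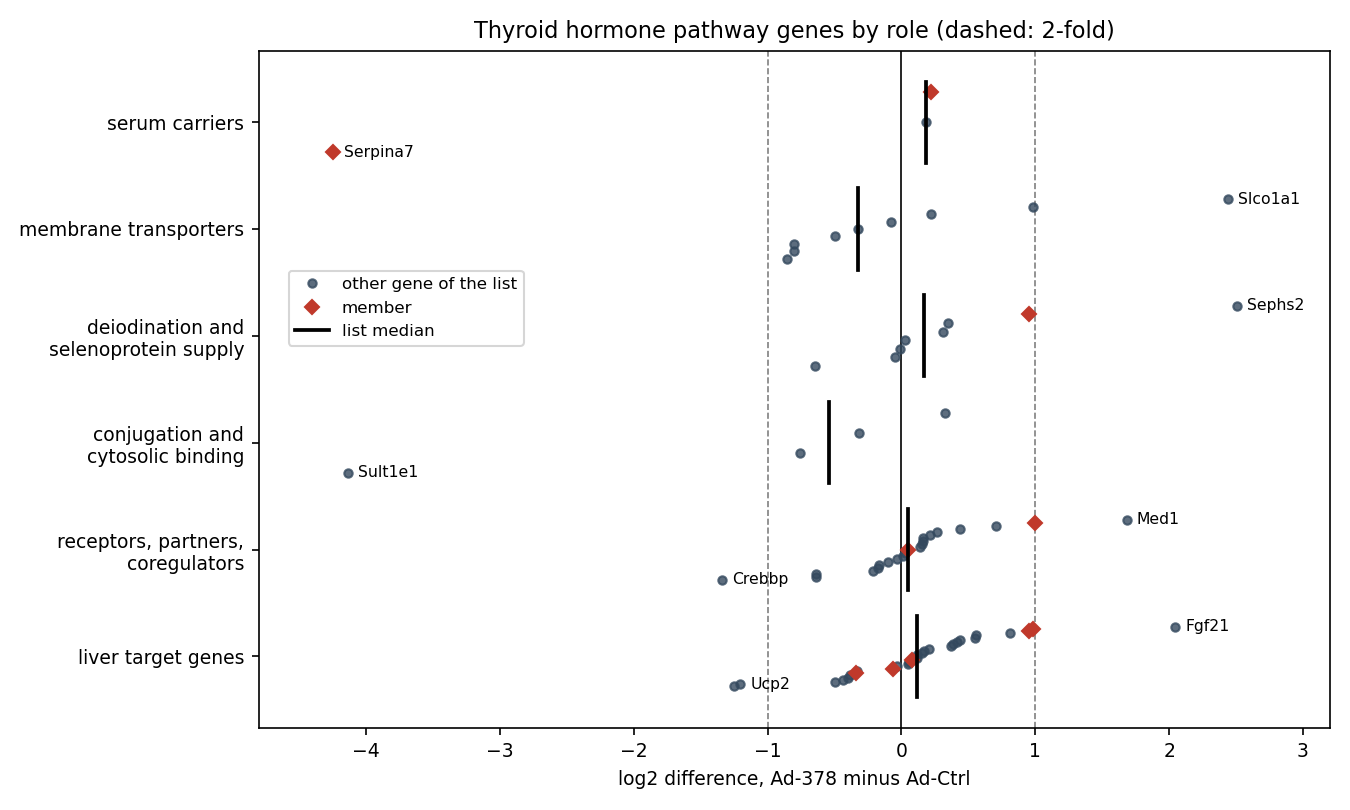
Log2 difference, Ad-378 minus Ad-Ctrl, of each gene of 6 lists that was measured on both arrays, with members as diamonds, other genes as circles, list medians as black lines and dashed lines at 2-fold. The medians lie between -0.54 and 0.19, and Serpina7 and Sult1e1 lie far below all others.

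The liver identity of both pools was checked from marker lists, with signals summed after division by the 75th percentile. All 12 hepatocyte markers were measured, their sum was 1678 in Ad-378 and 1480 in Ad-Ctrl, and none was 2-fold apart. The 10 measured macrophage markers were all lower in Ad-378 (sum 72.3 in Ad-378 and 135 in Ad-Ctrl, median -0.85), as were the 8 measured stellate cell and fibroblast markers (39.2 in Ad-378 and 77.8 in Ad-Ctrl, median -1.35). Those 8 were uneven, from -2.71 for the collagen gene Col3a1 to -0.20 for Dcn and -0.01 for Lrat. Lrat was above 0 on the series matrix (0.06) and after normexp (0.05). Among the macrophage markers, Csf1r ran from -0.88 to 0.36 over its 3 probes. Timd4 was dim, with 16.5 in Ad-378 and 20.7 in Ad-Ctrl. Its difference of -0.13 was within 2 scanner errors of 0 (error 0.37), and was 0.04 after normexp. Endothelial markers were lower in 7 of 8 (47.1 in Ad-378 and 56.1 in Ad-Ctrl, median -0.19). Of the lower ones only Lyve1 (-0.74, error 0.20) lay beyond 2 scanner errors of 0. Kdr, the 1 higher marker, lay beyond them on the other side (0.24, error 0.07). Of 6 cholangiocyte markers 5 were measured, 3 higher and 2 lower (8.29 in Ad-378 and 3.68 in Ad-Ctrl, median 0.56). Most of that sum came from Spp1, the osteopontin gene, with 4997 in Ad-378 and 2344 in Ad-Ctrl. Sox9 was at 0.78 and Epcam at 0.56, while the keratin gene Krt19 was at -0.36 and Cldn7 at -0.07. Epcam and Krt19 were dim and within 2 scanner errors of 0 (errors of 0.29 and 0.25). On the series matrix the cholangiocyte median was 0.29. Of 8 lymphocyte markers 7 were measured, 4 higher and 3 lower (7.09 in Ad-378 and 7.95 in Ad-Ctrl), and their median of 0.02 was below 0 under every other setting run except that without a background filter, down to -0.48 on the mean over probes. Most of that sum came from Nkg7, a gene of cytotoxic lymphocytes, with 3798 in Ad-378 and 4323 in Ad-Ctrl at its brighter probe. That probe was at 0.02 and the other at -0.97, so the probes of Nkg7 disagreed. The list median was the value of Nkg7 itself, also on the mean over probes. Beside Nkg7 the T cell genes Cd8a and Cd3e were at -1.14 and 0.02, the granzyme gene Gzma at -1.33 and the B cell gene Ms4a1 at 1.17. Ms4a1 was dim, with 36.2 in Ad-378 and 18.6 in Ad-Ctrl and an error of 0.37. On the series matrix and after normexp Ms4a1 was at 0.47 in both, and Cd8a at -0.75 and -0.68. The marker genes named in this paragraph were picked after their values were seen. Of 11 choroid plexus and pancreas markers, tissues that also make transthyretin, 3 were measured on both arrays. The part of these shifts in the members' values was not tested, and in pooled tissue fewer cells of a type and less RNA per cell cannot be told apart.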

How the data were processed

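Liver RNA of both pools was hybridised to 1-colour Agilent arrays of 44397 spots. The deposited values are intensities on a linear scale, which per the file headers were background-subtracted and detrended within the array by Feature Extraction 11.0.1.1, with no scaling between arrays. The submitters' processing notes name version 9.1. The labels' protocols describe a blood RNA kit with globin removal, although the tissue is liver. The deposited series matrix holds the raw median intensity of each spot, with column medians of 95 (Ad-378) and 103 (Ad-Ctrl).

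Control spots and outlier spots (123 gene spots per array) were dropped, spots of a probe averaged, and log2 signals centred on the 75th percentile over probes. Of gene spots, 65.7% in Ad-378 and 63.1% in Ad-Ctrl were well above background and 0 were saturated. Probes were named through RefSeq accessions (table of GRCm38.p6, 27219 of 39401 probes); the headers give mm9, so array coordinates are not used. A gene takes the brightest of its probes that passed the background flag on both arrays. There was no test between groups. The members and lists were chosen with earlier results of these data known. Named were all members, up to 4 genes per list with the largest differences, and the 2 genes on each side of a member past 2-fold; other names were chosen after their values were seen. A few genes under this rule are counted but not reported here by name.

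Alternatives were quantile and loess (span 0.3) normalization, the percentile over detected probes, the mean over probes, the series matrix, normexp (limma 3.58.1, offset 50), no background filter, and 1.5-fold and 3-fold thresholds. Normexp was fitted without spots carrying an outlier flag (489 in Ad-378 and 331 in Ad-Ctrl), because on all spots the fitted background of Ad-Ctrl was -175. The steps were tested on simulated data. Python 3.11.15, numpy 2.4.6, pandas 2.3.3, statsmodels 0.14.6 and R 4.3.3 were used.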

Additional observations from a re-analysis of the deposited data

How the results depend on the processing

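Of 63 values of the 9 members under the 7 other settings, 60 lay within 2 scanner errors of the reported value and 0 had another sign. The 3 exceptions were Serpina7 after normexp (-3.42) and on the raw medians of the series matrix (-3.59), and Thrb on the mean over its probes (0.48), where the disagreement of its probes enters by construction. The cause for Serpina7 was not tested. Part of the 63 values could not differ freely. Dropping the background filter left all 9 members unchanged, and the mean over probes left the 5 members with 1 probe unchanged. The percentile over detected probes shifted all 9 by the same small amount. Every list median was also unchanged without the background filter. Thra passed 2-fold under quantile normalization and under no other setting run. Of 63 list medians, of the 6 lists, the liver targets without the members and the whole set with and without them, 0 moved by more than 2 scanner errors of a gene. That bound is the error of a single gene and is wide for a median, so this count is no measure of stability. The median of the membrane transporters went from -0.33 to -0.08 on the mean over probes. Under loess 5 list medians had another sign: the serum carriers (-0.04), the liver targets with (-0.01) and without (-0.02) the members and the whole set with (-0.01) and without (-0.02) them. The serum carriers' median was 0 under quantile normalization. With the series matrix 221 genes lay at least 2-fold above and 394 as far below. After normexp these counts were 199 and 354, and without a background filter, which lets dim probes in, 1059 and 1166. A 1.5-fold threshold gave 1256 and 1721 genes, and a 3-fold one 106 and 201. Why the matrix and normexp counts are smaller was not tested. No paired analysis was possible because there is 1 pool per group. The scanner error does not cover mice, pools or labelling, and 5 members rest on 1 probe in 1 spot.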

Other observations

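The genes beside the members on the chromosome were read as well, taking the 2 protein-coding genes on each side in the order of the RefSeq table of GRCm38.p6. Of 36 such neighbours 24 were measured on both arrays, 14 higher and 10 lower in Ad-378, with a median of 0.02. Ermn, a neighbour of Gpd2 that encodes a cytoskeletal protein of oligodendrocytes, was the 1 neighbour at least 2-fold apart at its brightest probe, at 1.46, with 9726 in Ad-378 and 4074 in Ad-Ctrl. Its other probe read 206 in Ad-378 and 238 in Ad-Ctrl, a difference of -0.0047, so the probes of Ermn disagreed. B4galt6, a lactosylceramide synthase gene beside Ttr, was at -0.97 and -1.19 at its probes, with 283 in Ad-378 and 638 in Ad-Ctrl at the brighter. Of the neighbours of Serpina7, 4930513O06Rik was measured, at -0.30, with 19.3 in Ad-378 and 27.3 in Ad-Ctrl. Tex13a and Nrk, on the other side of Serpina7, had no probe well above background on both arrays.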
